A study of Rattus norvegicus with 6 samples.

Results

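The genes described here were the interleukins, chemokines and TNF superfamily members with their receptors, read in cultured rat oligodendrocyte precursor cells (OPCs), the glial cells that give rise to oligodendrocytes. They were chosen by name: every gene of the deposited table whose symbol starts with Ccl, Cxcl, Cxcr, Ccr or Il and a digit, or with Tnfsf or Tnfrsf and a digit, together with Tnf, Cx3cl1, Lif, Csf1 and Csf2, and with 1 TNF receptor gene left out by that rule. This gave 160 of the 32883 genes in the table. Of these members, 23 had 0 counts in all 6 libraries, 44 had counts but too few for a test, and 93 were tested.

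The study asked how ZJU-37, an inhibitor of the kinase RIPK1, changes transcription in OPCs. Both groups, each of 3 libraries, came from Sprague Dawley rats at postnatal day 0, and each culture was made from 2 cerebral cortices per the labels, while the methods describe the pooled cortices of 2 rats. The cells grew for a week in serum as mixed glia, were purified by shaking, which included a step meant to remove microglia, and were then kept in serum-free Neurobasal medium with B27 and N2. One group received 5 µM ZJU-37 and the control group an equal volume of its solvent DMSO, for 36 hours per the labels (the study's methods give a shorter time), and no other agent was added. Total counts ran from 13935865 to 24097927 a library, so that 3 counts stood for 0.124 to 0.215 CPM (counts scaled to library size). The 3 libraries of a group were called biological repeats in the methods and plate wells in a legend, so p-values measure the spread between these samples, which may be technical.

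Cytokines are secreted or membrane-bound signals that cells use to steer immunity and growth. Interleukins mostly act through paired receptor chains that switch on JAK kinases and STAT factors, or, for the IL-1 family, through MyD88 and IRAK kinases. Chemokines are small proteins that draw cells along a gradient through receptors of the G protein-coupled class. TNF superfamily ligands bind receptors that recruit TRAF adaptors or a death domain, and RIPK1 sits just below TNF receptors, where its ubiquitinated form leads to NF-κB and its kinase activity to cell death. In the brain, microglia are the main makers of chemokines and IL-1, astrocytes add to them, and OPCs carry several of the receptors.

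Because NF-κB binds a short sequence known as the κB consensus, promoters of the members were searched for it on both strands, in RefSeq windows of 250 bases before to 50 bases after each start (build GRCr8). A promoter was found for 121 of the 160 members, and 21 of those members held a match, among them 8 of the 27 chemokine ligands with a promoter. Counted by promoter, since a gene can have several listed starts, 24 of the members' 128 promoters held a match, and 7.51% of all 33469 promoters in the table did. A match of letters is a description and not a binding site. No match was held by Il3ra, which was lower with ZJU-37, or by the abundant Ccl6, Cxcl13, Cxcl16 and Il1b. The abundant Ccl7 held a match 59 bases before its start and is not shown. The genes shown here were picked from those with a match and do not stand for all members. They are the chemokine ligands Cxcl1 and Ccl20 and the receptor chains Il12rb2 and Il1rap, which were higher with ZJU-37. For each, 130 bases around the match are given 5′ to 3′ on the strand of the gene, with the match in capitals.
Cxcl1, chr14:17479336-17479465, minus strand: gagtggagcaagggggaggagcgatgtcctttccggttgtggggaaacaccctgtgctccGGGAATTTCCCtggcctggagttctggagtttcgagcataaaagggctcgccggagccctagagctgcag
Ccl20, chr9:91837010-91837139, plus strand: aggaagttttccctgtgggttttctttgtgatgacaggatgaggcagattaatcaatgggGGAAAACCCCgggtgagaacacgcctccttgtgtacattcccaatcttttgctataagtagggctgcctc
Il12rb2, chr4:97844923-97845052, minus strand: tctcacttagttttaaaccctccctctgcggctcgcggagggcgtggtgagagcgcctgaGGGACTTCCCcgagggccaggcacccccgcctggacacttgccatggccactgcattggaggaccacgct
Il1rap, chr11:87704358-87704487, minus strand: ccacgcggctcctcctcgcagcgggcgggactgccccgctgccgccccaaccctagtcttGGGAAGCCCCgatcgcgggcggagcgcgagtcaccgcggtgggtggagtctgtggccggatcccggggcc

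The match lay 84 bases before the start of Cxcl1, a neutrophil attractant and textbook NF-κB target, where 2 overlapping positions fit, and 89 bases before that of Ccl20, which attracts lymphocytes. In Il12rb2 it lay 55 bases before 1 of 2 listed starts. In Il1rap the same letters lay 85 and 166 bases before 2 neighbouring starts. Of these 4 genes, Cxcl1 and Ccl20 had log2 fold changes of -0.12 and -0.32 and did not pass the test, and both receptor chains rose. In all, 16 tested members held a match, so these 4 do not give the share of matched genes that rose.

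Tested with edgeR's quasi-likelihood test over 14670 genes, 3 of 93 members (3.23%) were higher with ZJU-37, where 9.43% of all tested genes were, and 2 of 93 (2.15%) were lower, where 5.58% of all genes were. The members that rose were the receptor chains Il12rb2 and Il1rap and the decoy receptor Tnfrsf11b. Those that fell were the receptors Tnfrsf19 and Il3ra. All 5 encode receptors. The 93 tested members included 27 interleukin receptor chains, 12 TNF receptors and 3 chemokine receptors. Of the interleukin receptor chains 7.41% were higher and 3.7% lower, and of the TNF receptors 8.33% and 8.33%. Without DMSO replicate 2 only Il12rb2 was called higher, and without any 1 of the 6 libraries only Tnfrsf19 was called lower. The median log2 fold change of the 93 was -0.14, beside -0.03 over all tested genes, and 67 of the 93 (72%) were negative, beside 54% of all genes; 10 had an unadjusted p under 0.05.

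Libraries with the same replicate number moved together over all genes, and a fit with the replicate number as a block called 6 members higher (6.45%, all genes 16.2%) and 16 lower (17.2%, all genes 15.9%). The 17 added calls are named in the paragraphs on their families, and 16 of them, all but Il6r, were lost in at least 1 blocked fit that left out a pair. Within pairs of the same number, the median log2 difference of the 93 members was -0.38 for replicate 1, where 73 were lower with ZJU-37, 0.00 for replicate 2, where 47 were, and -0.07 for replicate 3, where 54 were. The replicate 1 pair thus held most of the downward shift. With that pair left out, the blocked fit called 8 members higher and 14 lower; without the replicate 2 pair it called 4 and 16, and without the replicate 3 pair 4 and 3.

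**Figure D1:**
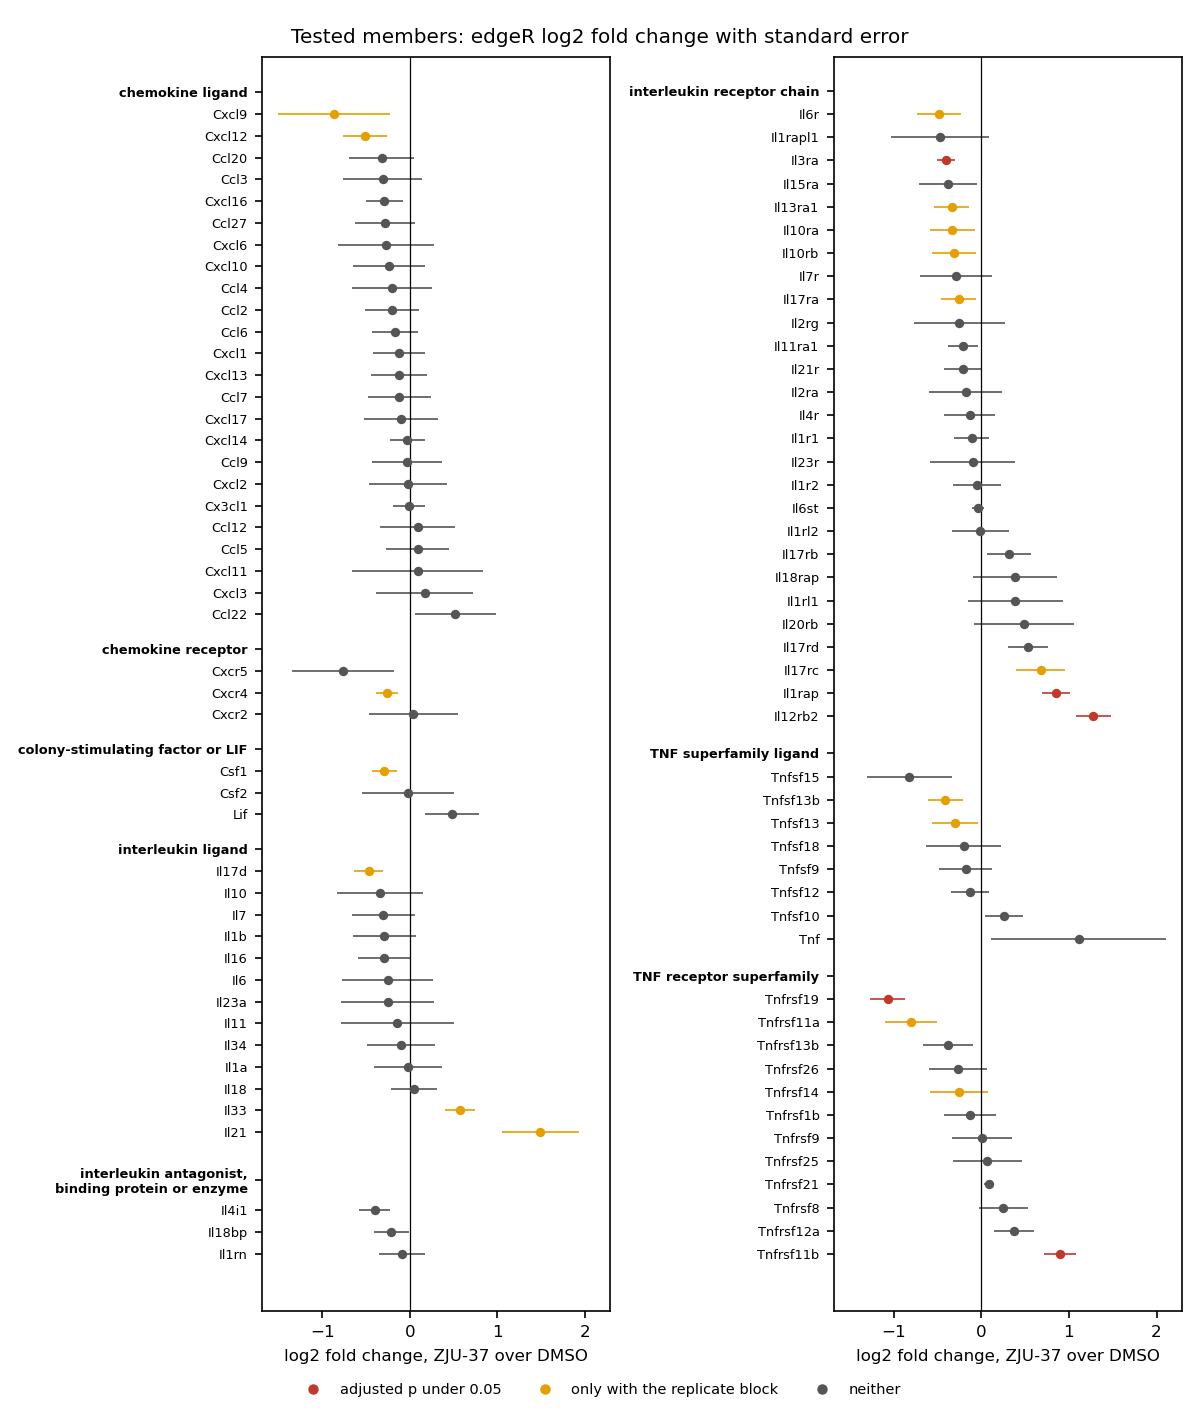
Log2 fold change with ZJU-37 over DMSO (x axis, edgeR, bars are standard errors) of the 93 tested members, grouped by role. Red marks the 5 with an adjusted p under 0.05, orange those called only with the replicate block, and grey the rest. The red points all lie among the receptors (27 interleukin, 12 TNF and 3 chemokine receptors tested), and the chemokine ligands cluster near or just below 0.

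Microglial RNA has to be read beside these results. All but 1 of 20 microglia markers had counts in these cultures, Siglech being at 0 in every library, and 19 were tested. C1qa, a complement subunit made by microglia, had 375, 705 and 486 FPKM in DMSO replicates 1, 2 and 3 and 277, 576 and 373 FPKM with ZJU-37. Pdgfra, the growth factor receptor that marks OPCs, had 68.4, 54.9 and 57.0 FPKM with DMSO and 174, 98.7 and 114 with ZJU-37. Summed over the list, microglia markers reached 2731 to 4830 FPKM with DMSO and 1986 to 4181 with ZJU-37, so the groups overlapped. None of the 19 was called in either direction, where 9.43% of all tested genes were higher and 5.58% lower. With the block 10 were lower, where 15.9% of all genes were. The median log2 fold change of the 19 was -0.25, and -0.47, -0.13 and -0.24 within the 3 pairs. In bulk samples fewer cells of a type and less RNA per cell cannot be told apart.

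The other marker lists fixed for this purpose were present too. Beside them, 9.43% of all tested genes were higher and 5.58% lower, and with the block 16.2% and 15.9%. Astrocyte markers summed to 300 to 519 FPKM over the 6 libraries, with 1 of 10 tested genes higher and 1 lower (2 and 5 with the block). Neuron markers summed to 164 to 256 FPKM, with none of 10 called and 3 lower with the block. Vascular and fibroblast markers summed to only 7.83 to 20.5 FPKM, with 1 of 7 lower (3 with the block). OPC markers were abundant at 1197 to 1655 FPKM, and 4 of 9 were higher and 4 lower, with or without the block. Oligodendrocyte markers summed to 3821 to 7486 FPKM with DMSO and 1605 to 3293 with ZJU-37, without overlap. Their median log2 fold change was -1.0, and -1.34, -0.55 and -1.14 within the 3 pairs; 9 of 10 were negative, 2 were lower, and 6 were lower with the block. The part of this shift in the values of the members was not tested.

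Chemokine ligands were the most abundant members. Of 33, 24 were tested and none was called in either direction, where 9.43% of all tested genes were higher and 5.58% lower. With the block 2 were lower (8.33%, all genes 15.9%). Among the 10 members with the highest mean FPKM, 8 were chemokine ligands, the others being Il1b and Tnfrsf14. Cxcl13, the B-cell attractant, had 177, 317 and 270 FPKM in DMSO replicates 1, 2 and 3 and 152, 326 and 220 with ZJU-37. Ccl6, a myeloid chemokine, had 179, 214 and 260 FPKM with DMSO and 125, 219 and 233 with ZJU-37. Ccl2, the main monocyte attractant, had 155, 180 and 253 FPKM with DMSO and 103, 181 and 224 with ZJU-37. In all 3 genes the groups overlapped and replicate 1 was the lowest library of its group.

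The related monocyte attractant Ccl7 had 104, 114 and 168 FPKM with DMSO and 64.3, 121 and 167 with ZJU-37. Ccl4, a macrophage inflammatory chemokine, had 85.9, 125 and 110 FPKM with DMSO and 34.1, 123 and 120 with ZJU-37. Ccl3, its close relative, had 73.7, 98.9 and 109 FPKM with DMSO and 29.3, 89.1 and 107 with ZJU-37; a second gene, AC114233.1, overlaps it on the other strand with 127 counts in all against 7451. For these genes ZJU-37 replicate 1 was the lowest of all 6 libraries. Cxcl1 had 76.8, 93.8 and 125 FPKM with DMSO and 55.9, 94.6 and 119 with ZJU-37. Cxcl16, which exists as a membrane-bound and a soluble form, had 81.1, 95.9 and 101 FPKM with DMSO and 52.3, 84.1 and 89.8 with ZJU-37, and its span overlaps that of Zmynd15. The log2 fold changes of these 8 ligands lay between -0.31 and -0.12, with adjusted p-values of 0.440 to 0.864 in edgeR, and without ZJU-37 replicate 1 they lay above 0 for all but Cxcl16, where the value nearest to 0 was -0.06.

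**Figure D2:**
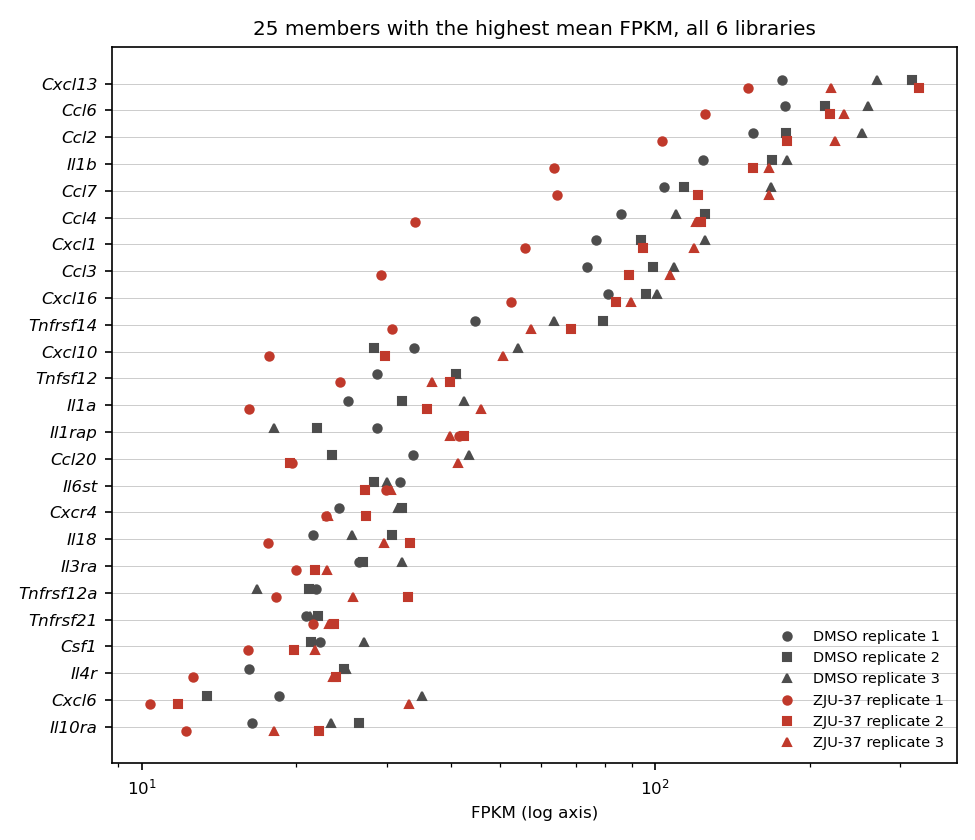
FPKM (x axis, log scale) in each of the 6 libraries for the 25 members with the highest mean FPKM. Grey is DMSO and red ZJU-37, and the marker shape gives the replicate. ZJU-37 replicate 1 is the lowest library for each of the 10 most abundant members, while the other ZJU-37 libraries lie in or near the DMSO range.

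Summed over the 33 chemokine ligands, the level was 1122, 1413 and 1688 FPKM in DMSO replicates 1, 2 and 3 and 743, 1423 and 1569 with ZJU-37. The sum was lower with ZJU-37 in the replicate 1 and 3 pairs and slightly higher in the replicate 2 pair. Of the 24 tested ligands, 23 were lower with ZJU-37 in the replicate 1 pair, 9 in the replicate 2 pair and 14 in the replicate 3 pair. The summed microglia markers were 2731, 4830 and 3893 FPKM with DMSO and 1986, 4181 and 3231 with ZJU-37, lower in all 3 pairs; their part in the level of the ligands was not tested.

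**Figure D3:**
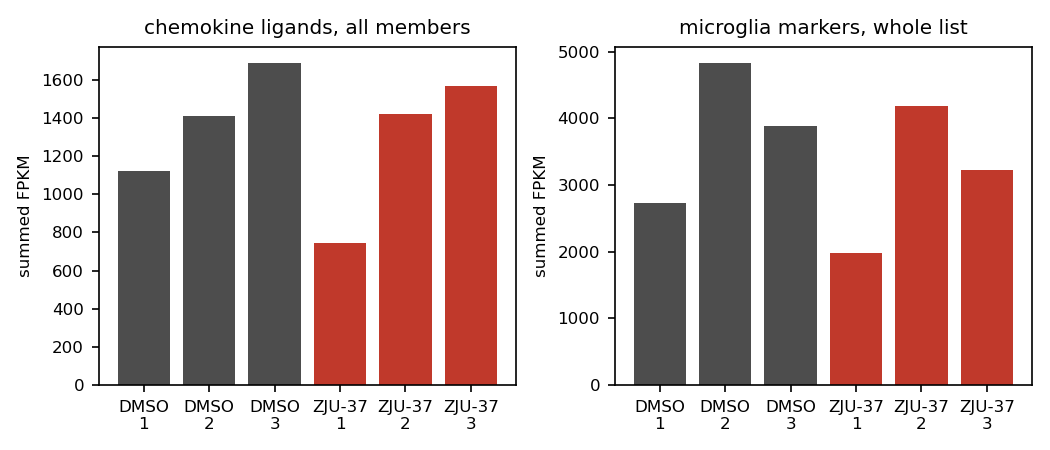
Summed FPKM (y axis, from 0) of all chemokine ligands (left) and of the microglia marker list (right) in each library, DMSO in grey and ZJU-37 in red. Replicate 1 is the lowest library of each group in both panels, with 743 FPKM of chemokine ligands in ZJU-37 replicate 1. The highest library of each group is replicate 3 for the ligands and replicate 2 for the markers.

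A few chemokines of other kinds stood apart from the inflammatory ones. Cxcl12, the homeostatic chemokine that guides OPC migration, had 5.14, 5.46 and 7.20 FPKM with DMSO and 2.82, 4.48 and 5.13 with ZJU-37. Its log2 fold change was -0.51 (SE 0.25), with an adjusted p of 0.235 in edgeR and 0.00887 with the replicate block. It was lower with ZJU-37 in every pair, and the groups did not overlap in FPKM but did in TMM-scaled CPM. Without the replicate 3 pair the blocked adjusted p was 0.0598. Cxcr4, the receptor for CXCL12 and the most abundant chemokine receptor here, had 24.2, 32.2 and 31.6 FPKM with DMSO and 22.9, 27.3 and 23.1 with ZJU-37. Its log2 fold change of -0.26 (SE 0.13) had an adjusted p of 0.251, and 0.0260 with the block. Ackr3, the other CXCL12 receptor, had 1.98, 2.16 and 1.63 FPKM with DMSO and 2.75, 1.76 and 1.87 with ZJU-37, and its log2 fold change of 0.14 had an adjusted p of 0.742.

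Cx3cl1, the membrane-bound fractalkine that neurons use to signal to microglia, had 17.0, 18.4 and 22.0 FPKM with DMSO and 14.8, 19.2 and 22.8 with ZJU-37. Its receptor Cx3cr1, a microglia marker, had 7.70, 9.04 and 8.35 FPKM with DMSO and 8.62, 8.49 and 8.15 with ZJU-37. Neither differed between the groups beyond the spread of the libraries, with log2 fold changes of -0.01 (SE 0.18) and 0.01 (SE 0.11). Cxcl9, an interferon-induced ligand, had 44, 22 and 96 counts with DMSO and 22, 19 and 75 with ZJU-37. Its log2 fold change of -0.86 (SE 0.64) was among the 5 lowest, with an adjusted p of 0.450 and, with the block, 0.0319.

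Receptors of the inflammatory chemokines were nearly silent. Of 16 chemokine receptors, 5 had 0 counts, 8 had too few for a test and 3 were tested, Cxcr4 and the low Cxcr2 and Cxcr5. Cxcr2, which binds CXCL1 and is known from OPC cultures, had 7, 18 and 9 counts with DMSO and 7, 23 and 14 with ZJU-37. Cxcr5, the CXCL13 receptor, had 14, 12 and 20 counts with DMSO and 2, 14 and 19 with ZJU-37, and its log2 fold change of -0.76 (SE 0.58) had an adjusted p of 0.459. At these counts no difference was detectable in either.

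Among interleukin receptors the largest call was Il12rb2, the signalling chain of the IL-12 receptor. It had 47, 75 and 53 counts in DMSO replicates 1, 2 and 3 and 176, 170 and 187 with ZJU-37, or 3.49 ± 0.713 CPM against 8.50 ± 0.920 (SD, n = 3 each). All ZJU-37 libraries lay above all DMSO libraries. The log2 fold change was 1.28 (SE 0.20), a 2.43-fold rise, with an adjusted p of 0.00644 in edgeR and 3.40e-04 with the block. The gene (ENSRNOG00000007270) spans 98052842 to 98141482 of chromosome 4 (minus strand) in the table, whose genome build is not given in the sources used here.

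The partners of Il12rb2 were close to absent. Il12rb1, the other chain of the receptor, had 2, 2 and 5 counts with DMSO and 3, 1 and 3 with ZJU-37. Of the subunits of IL-12 itself, Il12a had 5, 1 and 7 counts with DMSO and 9, 11 and 19 with ZJU-37, and Il12b had 0, 0 and 0 with DMSO and 0, 3 and 3 with ZJU-37. Neither was tested. The rise was thus of 1 chain of a receptor whose second chain had at most 5 counts in any library.

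Il1rap encodes the accessory chain that the receptors for IL-1, IL-33 and IL-36 share, without which they do not signal. Its level was 98.2, 74.5 and 61.8 CPM with DMSO and 140, 146 and 137 CPM with ZJU-37, or 78.2 ± 18.5 against 141 ± 4.36 (SD, n = 3 each). The ZJU-37 libraries lay closely together above the DMSO ones, which spread more widely. The log2 fold change was 0.85 (SE 0.16), a 1.81-fold rise, with an adjusted p of 0.0154 in edgeR, 0.0105 with the block and 0.0683 without DMSO replicate 2. The gene (ENSRNOG00000001928) spans 77463954 to 77593207 on the minus strand of chromosome 11.

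The receptors and ligands that work with Il1rap did not pass the test. Il1r1, the signalling IL-1 receptor, had 13.6, 12.7 and 18.1 FPKM with DMSO and 11.5, 12.2 and 17.3 with ZJU-37, with a log2 fold change of -0.11 (SE 0.20). Il1rl1, the IL-33 receptor, had 15, 84 and 71 counts with DMSO and 51, 129 and 89 with ZJU-37, with a log2 fold change of 0.39 (SE 0.54). The accessory chain thus rose while the ligand-binding chains overlapped between the groups. Il1b, the leading IL-1 ligand and 4th most abundant member, had 124, 169 and 181 FPKM with DMSO and 63.5, 155 and 167 with ZJU-37, with a log2 fold change of -0.29 (SE 0.36) and an adjusted p of 0.667. Il33, a nuclear alarmin that mature oligodendrocytes and astrocytes hold, had 3.61, 2.63 and 3.45 FPKM with DMSO and 4.43, 5.48 and 4.48 with ZJU-37. All 3 ZJU-37 libraries were above all DMSO ones, and the log2 fold change of 0.57 (SE 0.17) had an adjusted p of 0.0712, 0.0273 with the block and 0.0266 in DESeq2. With the block it was 0.161 without the replicate 2 pair and 0.0820 without the replicate 3 pair.

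Il3ra, the IL-3 binding chain, was the only interleukin receptor called lower without the block. It had 37.5, 37.8 and 45.5 CPM with DMSO and 28.0, 31.0 and 32.7 with ZJU-37, or 40.3 ± 4.51 against 30.6 ± 2.42 (SD, n = 3 each), with no overlap. The log2 fold change was -0.40 (SE 0.10), with an adjusted p of 0.0475 in edgeR and 0.00173 with the block. The call was lost when any 1 of the 6 libraries was left out (adjusted p 0.0692 to 0.135), and it is uncertain, because Asmtl overlaps the gene on the other strand with 3691 counts against 3989 and the strand setting of the counting is not given in the sources used here. The gene (ENSRNOG00000001325) spans 18534767 to 18540166 on the minus strand of chromosome 12. Il3 itself had 2 counts with DMSO and 1 with ZJU-37 over all libraries, while Csf2rb, the signalling chain of the IL-3 receptor, had 30.3 to 49.2 FPKM and a log2 fold change of 0.01.

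**Figure D4:**
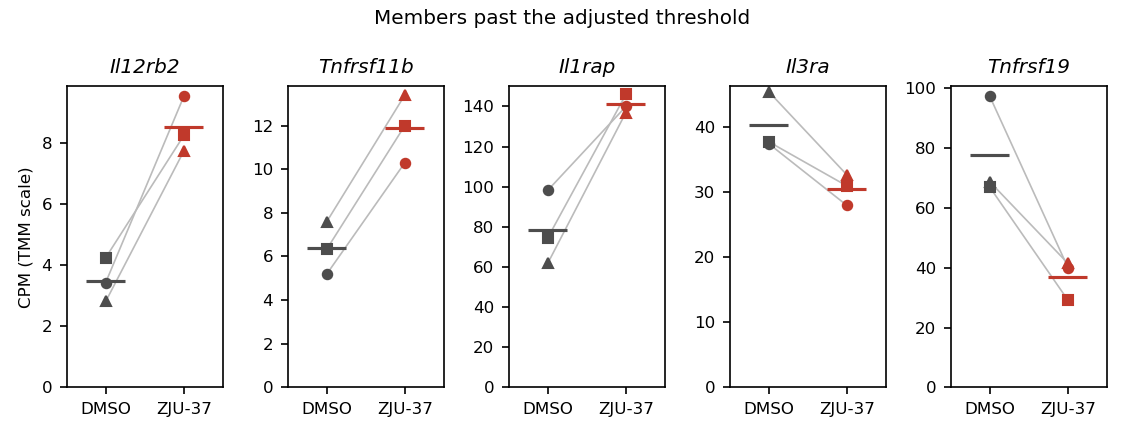
CPM on the TMM scale (y axes, from 0) of the 5 members with an adjusted p under 0.05, 3 DMSO and 3 ZJU-37 libraries each, marker shape for the replicate number, grey lines joining libraries of the same number and bars at group means. In each gene every ZJU-37 library lies on the same side of every DMSO library.

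Of 39 interleukin receptor chains, 27 were tested, and 2 were higher and 1 lower (7.41% and 3.7%, all genes 9.43% and 5.58%). The block gave 3 and 6 (11.1% and 22.2%, all genes 16.2% and 15.9%). The calls added by the block were Il17rc, an IL-17 receptor chain, on the higher side, with 45, 113 and 134 counts with DMSO and 171, 170 and 234 with ZJU-37 (log2 fold change 0.68, adjusted p 0.159, and 0.0426 with the block), and on the lower side Il6r, Il10ra, Il10rb, Il13ra1 and Il17ra. These 5, which bind IL-6, IL-10, IL-13 and IL-17, had log2 fold changes from -0.48 to -0.26, adjusted p-values of 0.272 to 0.488, and 0.00253 to 0.0156 with the block. In none of them did the groups separate. Il10ra, a chain found mostly on myeloid cells, had 16.4, 26.5 and 23.4 FPKM with DMSO and 12.2, 22.2 and 18.1 with ZJU-37, and its lowest and highest libraries were the same replicates as those of the summed microglia markers in both groups; the part of microglial RNA in it was not tested.

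Il6st encodes gp130, the chain shared by the receptors for IL-6, LIF and CNTF, and varied little. It had 31.9, 28.4 and 30.0 FPKM with DMSO and 29.9, 27.2 and 30.6 with ZJU-37, and a log2 fold change of -0.04 (SE 0.07). Its ligand Lif, a survival factor for oligodendrocytes, had 5.76, 7.49 and 7.11 FPKM with DMSO and 5.35, 10.5 and 12.3 with ZJU-37, higher in 2 of 3 pairs, with a log2 fold change of 0.48 (SE 0.31) and an adjusted p of 0.378. Without ZJU-37 replicate 1 its log2 fold change was 0.78 with an adjusted p of 0.0228, and with the block and without the replicate 1 pair 0.66 with 1.24e-04. Il6 had 24, 38 and 39 counts with DMSO and 9, 42 and 59 with ZJU-37, and its log2 fold change of -0.25 (SE 0.52) had an adjusted p of 0.796. Lifr, the LIF-binding chain, had 1.81, 1.22 and 1.69 FPKM with DMSO and 2.60, 2.26 and 1.91 with ZJU-37, with a log2 fold change of 0.52 (SE 0.19) and an adjusted p of 0.129, and 0.0238 with the block. Cntfr, the CNTF-binding chain, had 16.2, 11.1 and 13.2 FPKM with DMSO and 22.7, 18.1 and 20.1 with ZJU-37, and rose by a log2 fold change of 0.59 (SE 0.15, adjusted p 0.0440). Of this receptor family a ligand-specific chain passed the test, and the shared chain did not.

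Of 36 interleukin ligands, 10 had 0 counts, 13 had too few for a test and 13 were tested. None was called without the block, where 9.43% of all tested genes were higher and 5.58% lower. With it 2 were higher and 1 lower (15.4% and 7.69%, all genes 16.2% and 15.9%). Il21, a T-cell cytokine, had the largest log2 fold change of all members at 1.49 (SE 0.44), but from only 2, 4 and 9 counts with DMSO and 16, 15 and 22 with ZJU-37. Its adjusted p was 0.0694, 0.0331 with the block and 0.0417 without DMSO replicate 3. Il17d, a divergent IL-17 family ligand, had 8.21, 6.41 and 6.99 FPKM with DMSO and 5.91, 4.40 and 5.24 with ZJU-37, with no overlap, a log2 fold change of -0.47 (SE 0.17) and an adjusted p of 0.115, and 0.0190 with the block. Il1a, the other IL-1, and Il18, whose span overlaps that of Bco2, had 16.2 to 45.9 and 17.6 to 33.3 FPKM over the 6 libraries and log2 fold changes of -0.02 and 0.05. The 3 tested antagonists and binding proteins, Il1rn, Il18bp and Il4i1, lay between -0.40 and -0.09.

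The ligands of the CSF1 receptor, on which microglia depend, were both below 0 without a call. Csf1 had 22.3, 21.4 and 27.1 FPKM with DMSO and 16.1, 19.8 and 21.8 with ZJU-37, with a log2 fold change of -0.29 (SE 0.14) and an adjusted p of 0.242, and 0.0165 with the block. Il34 had 14, 16 and 34 counts with DMSO and 22, 16 and 37 with ZJU-37, and a log2 fold change of -0.10 (SE 0.39). Csf1r, their receptor and a microglia marker, had 130, 215 and 161 FPKM with DMSO and 98.9, 181 and 127 with ZJU-37, and its log2 fold change of -0.30 (SE 0.27) had an adjusted p of 0.532, and 0.00167 with the block. In the replicate 1 pair Csf1 and Csf1r were lower in FPKM with ZJU-37 and Il34 was higher.

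**Figure D5:**
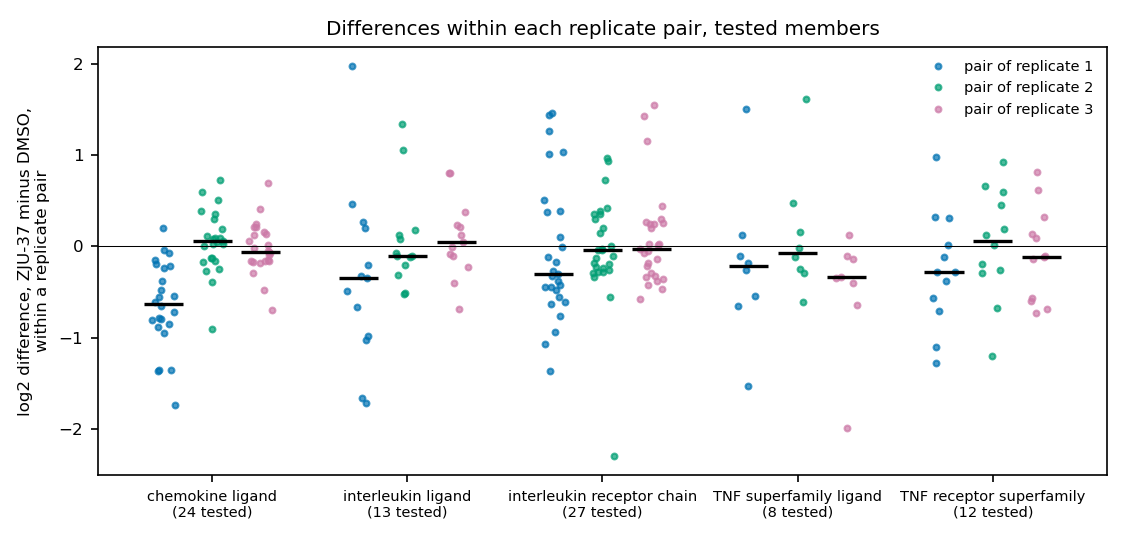
Log2 difference in CPM between the ZJU-37 and the DMSO library of the same replicate number (y axis) for the tested members of 5 roles. Each point is a member, colours mark the 3 pairs and black bars are medians. For chemokine ligands the medians are -0.63, 0.06 and -0.06.

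Turning to the TNF superfamily, 8 of 12 ligands were tested and none was called, where 9.43% of all tested genes were higher and 5.58% lower. Tnf itself was low and erratic, with 8, 32 and 21 counts in DMSO replicates 1, 2 and 3 and 34, 118 and 5 with ZJU-37. The highest and the lowest library were thus both ZJU-37 libraries. Its log2 fold change of 1.11 (SE 1.0) had an adjusted p of 0.539 and was -0.23 without ZJU-37 replicate 2. With the block it was -0.15 without the replicate 2 pair and 1.65 (adjusted p 0.0114) without the replicate 3 pair. The span of Tnf in the table overlaps those of RT1-CE1, RT1-CE7 and RT1-CE4, so the count is uncertain. Tnfsf12, which encodes TWEAK, was the most abundant ligand at 24.3 to 41.0 FPKM, and its receptor Tnfrsf12a had 21.9, 21.2 and 16.8 FPKM with DMSO and 18.3, 33.1 and 25.8 with ZJU-37, with a log2 fold change of 0.37 (SE 0.23) and an adjusted p of 0.351. Tnfsf15 had 9, 18 and 15 counts with DMSO and 3, 13 and 14 with ZJU-37, a log2 fold change of -0.82 (SE 0.48) and an adjusted p of 0.328. Tnfsf13 and Tnfsf13b, which encode the B-cell factors APRIL and BAFF, had log2 fold changes of -0.30 and -0.41, adjusted p-values of 0.513 and 0.239, and 0.0291 and 0.0185 with the block.

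Tnfrsf19, a death-domain-free receptor also called TROY and known from glial precursors, was the member that fell most. Its level was 97.4, 67.0 and 68.8 CPM with DMSO and 40.1, 29.2 and 41.5 CPM with ZJU-37, or 77.7 ± 17.0 against 36.9 ± 6.74 (SD, n = 3 each). No ZJU-37 library reached a DMSO library. The log2 fold change was -1.07 (SE 0.20), with an adjusted p of 0.0142 in edgeR and 7.34e-04 with the block. The gene (ENSRNOG00000014265) spans 41246308 to 41338284 on the minus strand of chromosome 15.

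Tnfrsf11b encodes osteoprotegerin, a secreted decoy that binds the ligands RANKL and TRAIL. It had 5.19, 6.33 and 7.59 CPM with DMSO and 10.3, 12 and 13.4 with ZJU-37, or 6.37 ± 1.20 against 11.9 ± 1.52 (SD, n = 3 each). In each pair the ZJU-37 library lay above its partner, by 0.98, 0.92 and 0.81 on the log2 scale for replicates 1, 2 and 3. The log2 fold change was 0.90 (SE 0.18), with an adjusted p of 0.0182 in edgeR and 3.46e-04 with the block, and it was past 0.05 without DMSO replicate 2 (0.0704), without ZJU-37 replicate 2 (0.0532) and without ZJU-37 replicate 3 (0.0729). The gene (ENSRNOG00000008336) spans 93798545 to 93826665 on the minus strand of chromosome 7.

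The ligands that osteoprotegerin binds were scarce. Tnfsf11, which encodes RANKL, had 0 counts in all 6 libraries, and Tnfsf10, which encodes TRAIL, had 19, 25 and 27 counts with DMSO and 28, 41 and 38 with ZJU-37 (log2 fold change 0.26, adjusted p 0.517). Tnfrsf11a, the signalling receptor for RANKL, had 54, 105 and 87 counts with DMSO and 33, 76 and 69 with ZJU-37. Its log2 fold change was -0.80 (SE 0.30), with an adjusted p of 0.136, and 0.0109 with the block. The decoy and the signalling receptor of 1 ligand thus lay on opposite sides of 0, the second past the threshold only with the block.

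Of the other TNF receptors, Tnfrsf14 was the most abundant and the only one of them called with the block. This receptor, HVEM, which binds LIGHT, had 44.7, 79.2 and 63.6 FPKM with DMSO and 30.8, 68.5 and 57.4 with ZJU-37, with a log2 fold change of -0.25 (SE 0.33) and an adjusted p of 0.677, and 0.0346 with the block. Tnfrsf1b, the second TNF receptor, had 11.7, 18.7 and 18.0 FPKM with DMSO and 9.17, 18.6 and 16.4 with ZJU-37, and a log2 fold change of -0.13 (SE 0.30). Both were highest in replicate 2 and lowest in replicate 1 of each group, as the summed microglia markers were. Tnfrsf21, death receptor 6, a known brake on oligodendrocyte maturation, was even at 20.9, 22.1 and 21.3 FPKM with DMSO and 21.6, 23.7 and 23.2 with ZJU-37, with a log2 fold change of 0.09 (SE 0.06) and an adjusted p of 0.401.

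Many members of the adaptive immune system were not seen. The 23 members at 0 counts included Il2, Il13, Il17a, Il17f and Il22, which T cells make, Ccl11, Ccl24 and Ccl26, which attract eosinophils, and the receptors Ccr3, Ccr4, Ccr8 and Ccr9. At this depth a count of 0 allows up to 0.124 to 0.215 CPM in a library. In all, 137 of the 160 members had a count in at least 1 library, beside 21314 of all 32883 genes. A count in all 6 libraries was found for 106 members.

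The genes through which these receptors signal are given beside the shares over all tested genes, 9.43% higher and 5.58% lower. With the block those shares were 16.2% and 15.9%. Of 25 JAK-STAT transducers found of 26 listed, Socs5, an inhibitor of cytokine signalling, was higher (log2 fold change 0.44, adjusted p 0.0130) and Pias4, which attaches SUMO to STATs, was lower (-0.50, adjusted p 0.00469), and the block gave 2 higher and 6 lower. Of 30 TNF receptor adaptors and ubiquitin ligases, Siva1 was higher (0.64, adjusted p 0.0127), and Tab2, which links ubiquitin chains to the kinase TAK1, and the deubiquitinase Cyld were lower (-0.47 and -0.39, adjusted p 0.00295 and 0.0220), and the block gave 3 and 11. Ripk1, whose product ZJU-37 inhibits, had 10.1, 13.9 and 12.5 FPKM with DMSO and 10.9, 13.1 and 12.6 with ZJU-37, a log2 fold change of 0.01 (SE 0.13). The list medians were -0.03 and -0.16.

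Of 12 tested IL-1 receptor and Toll adaptors, Peli1, a ubiquitin ligase for IRAK kinases, was lower. It had 82.8, 67.5 and 60.1 FPKM with DMSO and 36.8, 39.2 and 33.9 with ZJU-37, a log2 fold change of -0.94 (SE 0.13) and an adjusted p of 0.00378. Myd88, the central adaptor, had a log2 fold change of -0.35 and an adjusted p of 0.469, and 0.00244 with the block. The block called 5 of the 12 lower, where 15.9% of all tested genes were, and the list median was -0.22. Of 37 tested cytokine and TNF family genes whose names fall outside the rule, Eda2r, a receptor for ectodysplasin, was higher besides Cntfr. It had 6.18, 5.66 and 5.64 FPKM with DMSO and 15.8, 11.8 and 13.3 with ZJU-37, a log2 fold change of 1.23 (SE 0.12) and an adjusted p of 0.00125. None of the 37 was lower without the block, which gave 5 higher and 8 lower (all genes 16.2% and 15.9%), and their median was -0.09.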

How the data were processed

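RNA of 3 DMSO and 3 ZJU-37 cultures was poly-A selected and sequenced by the authors (NEBNext Ultra kit). Per the labels' processing notes the tools were HISAT2 2.0.5, StringTie 1.3.3b and featureCounts 1.5.0; the genome build and the strand setting are not given in the sources used here. The authors deposited 1 table with raw counts per gene and FPKM (fragments scaled to gene length and library size) for each library; its columns of the authors' own comparison (group means, log2 fold change, p and adjusted p) were not used. FPKM served for levels, and counts for tests. Here edgeR 4.0.16 in R 4.3.3 (filterByExpr, TMM, robust glmQLFit, glmQLFTest) was fitted on group over the 14670 genes kept of 32883, with Benjamini-Hochberg adjustment over all of them and a threshold of 0.05. SEs are on the log2 scale. CPM are TMM-scaled, and differences within pairs used log2 of CPM plus 0.1. Alternatives were DESeq2 1.42.0, limma-voom (limma 3.58.1), RLE or library size scaling, no filter, at least 10 counts in every library, each library left out, and a block on the replicate number. The pairing comes from the data: deviations of same-numbered libraries correlated at 0.39, 0.31 and 0.33, and of others at -0.27 to -0.01. The block without each pair was added after the data were seen.

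On simulated data with known changes (14530 genes), the edgeR test recovered 86% of genes changed by 1.5 and 97% of those changed by 2 on the log2 scale, with 8.96% false calls. The block recovered 83% and 97%, with 13.5% false calls, and DESeq2 90% and 100%, with 20.8%. The simulated counts held no replicate effect, so they cannot show how the block behaves on paired libraries. The limits set by 3 counts cover counting error only. Members described with their values in every library were those called, the 10 of highest mean FPKM, the 5 of largest log2 fold change in each direction, and 19 with well-known roles in glia or TNF signalling, with receptor or ligand partners. Ccl20, Il1r1, Il1rl1, the other genes called only with the block and the near-absent partners were named outside that rule. 1 member is not reported here. The members and gene lists were chosen with earlier results of these data known. Lists were described by counts and medians, with no set test.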

Additional observations from a re-analysis of the deposited data

How the results depend on the processing

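With the replicate block, 6 members were called higher and 16 lower, in place of 3 and 2; without the replicate 1 pair the block gave 8 higher and 14 lower, without the replicate 2 pair 4 higher and 16 lower, and without the replicate 3 pair 4 higher and 3 lower. That last fit ended most of the lower calls that the block added. DESeq2 gave 4 higher, adding Il33. Library size scaling alone gave 1 lower. Leaving out 1 library at a time gave 1 to 4 higher, 1 without DMSO replicate 2, and 1 lower in every case; Il3ra was the call lost. Tnfrsf19 and Il12rb2 were past the threshold in all 16 alternatives. Of members that passed no threshold in the reported fit, some changed sign on the log2 scale. Cx3cl1 was 0.01 with library size only and Cxcr2 -0.02 in limma-voom. With the block and without the replicate 1 pair Ccl4 was 0.07, Ccl7 0.06, Cx3cl1 0.08, Il6 0.09 and Il6st 0.00; without the replicate 2 pair Tnf was -0.15, and without the replicate 3 pair Cxcr2 was -0.07 and Il34 0.00. With 1 library left out the values ran from -0.44 to 0.08 for Ccl2, -0.64 to 0.09 for Ccl3, -0.44 to 0.21 for Ccl4, -0.32 to 0.08 for Ccl6, -0.45 to 0.19 for Ccl7, -0.15 to 0.16 for Cx3cl1, -0.37 to 0.15 for Cxcl1, -0.43 to 0.13 for Cxcl13, -0.44 to 0.49 for Cxcr2, -0.51 to 0.06 for Il1b, -0.33 to 0.28 for Il34, -0.63 to 0.18 for Il6, -0.09 to 0.03 for Il6st, -0.23 to 1.69 for Tnf, -0.47 to 0.04 for Tnfrsf14 and -0.31 to 0.14 for Tnfrsf1b. The cause was not tested. The block changed no other call than those given with the members. With the block and without the replicate 1 pair, Lif, Tnfrsf12a and Tnfrsf21 were past the threshold as higher (adjusted p 1.24e-04, 3.62e-05 and 0.0446). In that fit Cxcl16 was past it as lower, at -0.16 (adjusted p 0.0105). Without the replicate 2 pair the block put Ccl2, Ccl6 and Cxcl13 past it as lower (adjusted p 0.0446, 0.0474 and 0.0368). Without the replicate 3 pair it put Tnf past it as higher, at 1.65 (adjusted p 0.0114). Low counts limit Tnf, Il21, Cxcr2, Cxcr5, Il34 and Tnfsf15.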

Other observations

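Some members that were not tested had uneven low counts. Tnfrsf18, a T-cell costimulatory receptor, had 10 counts in ZJU-37 replicate 2 and 0, 1 and 1 with DMSO and 0 and 0 in the other ZJU-37 libraries, and Tnf was also highest in that library, with 118 counts. Cxcr1 had 5, 6 and 9 counts in DMSO replicates 1, 2 and 3 and 0, 2 and 5 with ZJU-37.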
